A study of Saccharomyces cerevisiae with 50 samples.

Results

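The 9 genes described here are TOS1 (YBR162C), TOS2 (YGR221C), TOS3 (YGL179C), TOS4 (YLR183C), TOS6 (YNL300W), TOS7 (YOL019W), PLM2 (YDR501W), SVS1 (YPL163C) and CSI2 (YOL007C) of Saccharomyces cerevisiae. They were chosen by name as targets of the transcription factor SBF and not by a rule on their values, but with earlier results of these data known. They are 9 of the 6204 open reading frames of the array. The study followed W303 cells, a laboratory strain of budding yeast, after arrest with alpha factor and release into the rich medium YEPD. Cells were sampled at 25 time points, 5 min apart, up to 120 min after release. Total RNA of each time point was hybridised on 2 arrays, in Cy3 (replicate 1) and in Cy5 (replicate 2), against RNA of an asynchronous yeast culture grown overnight in YEPD, for 50 arrays in all. The labels name no strain, mating type or genotype beyond W303. All time points thus share the arrest, the release and the reference.

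SBF is the pair of Swi4, which binds DNA, and Swi6. It sits on its targets in early G1 with its repressor Whi5, and G1 cyclin kinase lifts the repression when the cell commits to a new cycle. MBF, in which Mbp1 takes the place of Swi4, acts at the same time, mostly on genes of DNA synthesis, while SBF targets are known for roles in budding, the cell wall and the cyclins themselves. TOS stands for target of SBF. Alpha factor, the pheromone of the opposite mating type, holds MATa cells in G1 before this step, so release lets a culture pass it together.

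The deposited numbers are log ratios between the dyes. They were read as log10 of Cy5 over Cy3, because they end at -2 and 2, turned to sample over reference and expressed in log2. The base is inferred and the direction is likely rather than stated, since the sources used here give neither, and every level and fold below rests on both. At 0 min the 6 pheromone-induced genes lay between 1.58 and 5.79 log2 units above the reference, the 6 MATa-specific genes between 0.73 and 4.60, and the 4 MATalpha-specific genes between -0.21 and 0.29. Over all genes, the r within a dye-swap pair lay between 0.196 and 0.673 (median 0.472). These pairs are technical repeats and were averaged. No label names a second culture, so all p-values reflect how far time points of this one course scatter. That scatter may be technical, and within a window of time points it also holds any rise or fall between them. The number of arrays limits the precision. In RNA of a whole culture, fewer cells in a stage and less RNA per cell cannot be told apart.

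Of the 9 genes, 8 varied with the cell cycle, tested as a cosine of 66 min by the F test of limma (threshold of 0.05 on the p adjusted over all genes), while 33.7% of all genes did. TOS1 was the exception, with an adjusted p of 0.101 in that limma fit. Their fitted peaks lay between 19.7 and 28.3 min, the same stage recurring 66 min later in the fit. The amplitudes, the fitted distance from mean to peak, spanned a wide range, from 0.15 for TOS3 to 1.65 for TOS6, against a median of 0.14 over all genes. TOS6 had the 4th largest amplitude of the 6204 genes, SVS1 the 13th, CSI2 the 27th and TOS4 the 42nd.

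**Figure D1:**
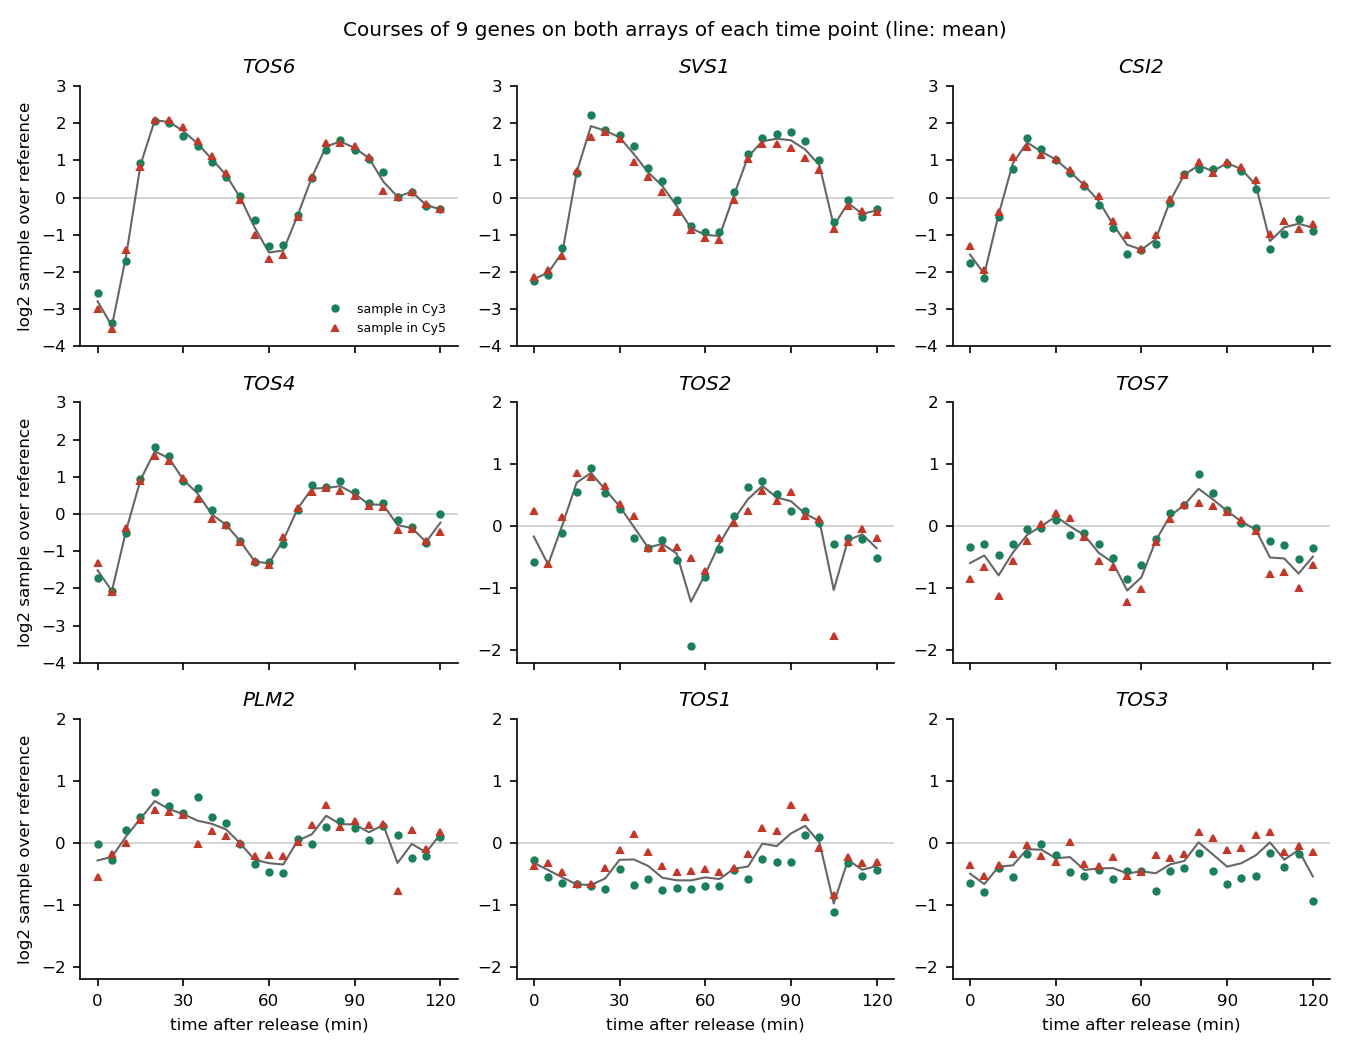
Log2 ratio of sample over reference (y axis) against minutes after release (x axis) for each of the 9 genes, with each array as a point and the mean of the dye-swap pair as a line. TOS6, SVS1, CSI2 and TOS4 show 2 tall peaks, highest at 20 min in cycle 1, TOS2, TOS7 and PLM2 show lower ones, and TOS1 and TOS3 have pair means between -0.98 and 0.27.

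TOS6 encodes a cell wall protein held by a glycolipid anchor, and it had the widest range of the 9. Its log2 ratio ran from -3.45 at 5 min through a median of 0.43 to 2.08 at 20 min, a 46.2-fold range. On the Cy3 and Cy5 arrays it was -3.37 and -3.53 at 5 min, then 0.93 and 0.82 at 15 min, then 2.07 and 2.09 at 20 min. Nearly the whole rise thus fell between adjacent samples of 5 to 20 min, and the arrays of a pair gave the same picture. TOS6 stood at -1.29 and -1.66 at 60 min and returned to 1.55 and 1.46 at 85 min, so its second trough was shallower than its first and its second crest lower. The fitted amplitude was 1.65 ± 0.25 (SE, 25 time points; limma adjusted p = 7.41e-05), with the peak at 28.3 ± 1.62 min.

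SVS1, a serine- and threonine-rich protein of the cell wall and vacuole whose loss makes cells sensitive to vanadate, followed a similar course. Its log2 ratio ran from -2.19 at 0 min through a median of 0.31 to 1.92 at 20 min, a 17.3-fold range. On the Cy3 and Cy5 arrays it was -2.24 and -2.14 at 0 min, -1.36 and -1.58 at 10 min, and 2.22 and 1.63 at 20 min. After a trough of -1.03 at 65 min it was back at 1.58 at 85 min, 0.34 log2 units below its crest in cycle 1. The amplitude was 1.42 ± 0.21 (limma adjusted p = 5.15e-05), with the peak at 25.8 ± 1.56 min.

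TOS1, a protein bound covalently in the cell wall, did not share this course. Its log2 ratio ran from -0.98 at 105 min through a median of -0.42 to 0.27 at 95 min. At 20 min, when TOS6 and SVS1 were at their highest, TOS1 lay at -0.71 and -0.66, below its levels of -0.28 and -0.37 at 0 min. In cycle 2 it did climb, from -0.56 at 60 min to 0.15 at 90 min. Its amplitude over the whole course was 0.19 ± 0.07, and this near miss of the threshold depends on the processing: with the arrays scaled to a common spread the adjusted p was 0.00772, without the time points 105, 110 and 115 min it was 0.0330, and without 0, 5, 10 and 15 min it was 0.0377 (limma).

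TOS4 and PLM2 are paralogs, and both encode proteins with a forkhead-associated domain, which binds phosphorylated partners. Tos4 associates with chromatin and acts in the response to replication stress, and PLM2 was named for plasmid maintenance. TOS4 ran from -2.07 at 5 min through a median of -0.01 to 1.68 at 20 min, a 13.5-fold range. Its arrays gave -2.06 and -2.09 at 5 min, 1.80 and 1.56 at 20 min, -1.29 and -1.37 at 60 min, and 0.88 and 0.61 at 85 min. The crest of cycle 2 was therefore 0.94 log2 units lower than that of cycle 1. PLM2 ran from -0.35 at 65 min through a median of 0.14 to 0.67 at 20 min, a 2.03-fold range. Its arrays gave -0.03 and -0.55 at 0 min, 0.81 and 0.53 at 20 min, -0.49 and -0.21 at 65 min, and 0.26 and 0.61 at 80 min, so the paralogs were high at the same times. The amplitudes were 1.10 ± 0.16 for TOS4 (limma adjusted p = 6.07e-05) and 0.33 ± 0.06 for PLM2 (2.51e-04). The amplitude of PLM2 minus that of TOS4 was -0.76, with a 95% interval from -1.04 to -0.49. Their peaks, at 24.2 and 25.8 min, differed by 1.67 min with an interval from -0.92 to 4.25 min, which holds 0.

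CSI2, whose product lies at the bud neck and has no settled function, ran from -2.06 at 5 min through a median of -0.09 to 1.48 at 20 min, an 11.6-fold range. Its arrays gave -2.17 and -1.94 at 5 min, 1.61 and 1.36 at 20 min, -1.41 and -1.39 at 60 min, and 0.90 and 0.95 at 90 min. Like TOS4, it was lowest at 5 min and highest at 20 min. Its amplitude was 1.22 ± 0.16 and its peak at 24.7 ± 1.41 min, the smallest peak error of the 9 (limma adjusted p = 1.52e-05).

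TOS2, a membrane protein of the growing bud and bud neck that works with the polarity factor Cdc24, ran from -1.22 at 55 min through a median of -0.01 to 0.86 at 20 min. Unlike TOS6, SVS1, CSI2 and TOS4, it was near the reference during arrest, at -0.57 and 0.24 at 0 min, and had its deepest trough later. That trough rests on arrays that disagree, with -1.92 on the Cy3 array and -0.51 on the Cy5 array at 55 min, and its value at 5 min comes from the Cy5 array alone because the other was missing. Its amplitude was 0.63 ± 0.09 (limma adjusted p = 7.67e-05), and its peak at 19.7 ± 1.58 min was the earliest of the 9.

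TOS7 encodes a membrane protein of poorly known function. It ran from -1.04 at 55 min through a median of -0.23 to 0.61 at 80 min, so its crest in cycle 2 was the higher one. The arrays gave -0.46 and -1.12 at 10 min, 0.11 and 0.21 at 30 min, -0.85 and -1.22 at 55 min, and 0.84 and 0.37 at 80 min. Its amplitude was 0.48 ± 0.08 with the peak at 20.3 ± 1.79 min (limma adjusted p = 3.06e-04).

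TOS3 encodes a kinase that activates Snf1, the yeast AMP-activated kinase, and was the flattest of the 8 genes past the threshold. It ran from -0.67 at 5 min through a median of -0.35 to 0.01 at 80 min, a 1.59-fold range. Its arrays gave -0.79 and -0.54 at 5 min and -0.01 and -0.21 at 25 min, and over the course they correlated with an r of only 0.316. The amplitude was 0.15 ± 0.04 (limma adjusted p = 0.0192). The call was lost on the Cy3 arrays alone (adjusted p = 0.206) and at a period of 58 min (0.0502).

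In order of amplitude, TOS6 was followed by SVS1, CSI2, TOS4, TOS2, TOS7, PLM2, TOS1 and TOS3. In order of fitted peak time, TOS2 was followed by TOS7, TOS1, TOS4, CSI2, SVS1, PLM2, TOS3 and TOS6. The place of TOS1 (21.4 ± 3.95 min) is not borne out by its course in cycle 1. TOS1 was not called periodic, and it stood at -0.68 at 20 min and at -0.27 at 35 min. Intervals were computed for all 36 pairs. TOS6 peaked later than SVS1 by 2.50 min (95% interval 0.93 to 4.07), than CSI2 by 3.66 min (1.84 to 5.48) and than TOS4 by 4.15 min (2.12 to 6.17). TOS2 peaked 4.45 min before TOS4 (1.43 to 7.46). By contrast the intervals held 0 for CSI2 against TOS4 (0.48 min, -1.25 to 2.22), SVS1 against CSI2 (1.16 min, -0.30 to 2.62) and TOS7 against TOS2 (0.53 min, -3.79 to 4.85). These intervals are not adjusted for the number of pairs, and these differences are shorter than the sampling step of 5 min. The peak times also depend on the period. At 60 min TOS2, TOS7, TOS4 and CSI2 still came first in this order (22.4, 24.5, 25.6 and 26.7 min) and TOS6 last (29.5 min), but TOS1 moved from the third place to the eighth (28.1 min) and SVS1 came after PLM2 (27.7 and 27.2 min).

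**Figure D2:**
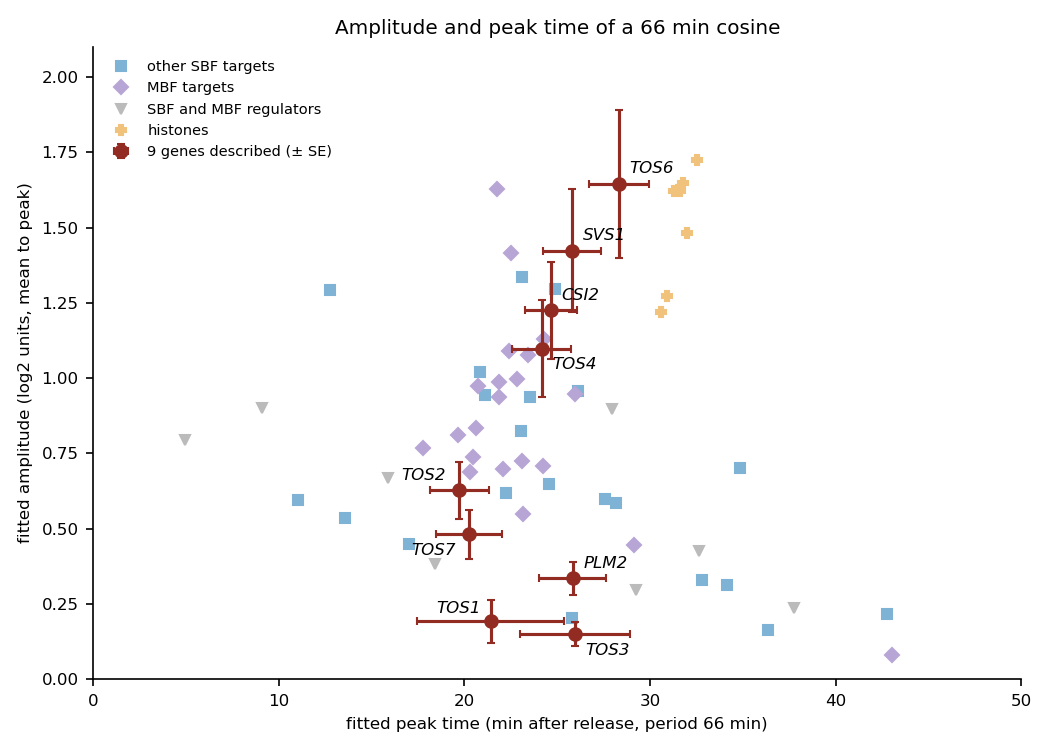
Fitted amplitude in log2 units (y axis) against fitted peak time in minutes (x axis) for the 9 genes, with standard errors as bars, beside the genes of 4 lists without errors (other SBF targets, MBF targets, regulators, histones). Among the 9 genes TOS6, at 1.65 and 28.3 min, lies highest and farthest to the right, and TOS1 and TOS3 lie lowest with the widest errors of peak time.

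A fitted peak mixes the rise with the fall, so the midpoints of both were read from the course by linear interpolation. In cycle 1 CSI2, TOS2, TOS4, PLM2 and TOS6 passed the midpoint between trough and crest at 10.6, 10.7, 10.9, 11.6 and 11.8 min. SVS1 passed it at 13.1 min and TOS7 at 16.9 min. TOS3, with its shallow course, passed at 9.99 min on the pair means, but later on single arrays, at 17.0 min (Cy3) and 12.5 min (Cy5). The 5 rises given first thus lay closer together than a sampling step. The falls were more spread: TOS4 passed its midpoint downward at 38.3 min, SVS1 at 43.2 min, CSI2 at 43.5 min and TOS6 at 47.5 min. TOS6 was above its midpoints for 35.7 min and TOS4 for 27.4 min. On single arrays the fall came at 38.8 and 37.8 min for TOS4 and at 46.6 and 48.1 min for TOS6, so the order held in both orientations. For PLM2 the arrays disagreed, with 47.3 and 33.0 min.

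Cycle 2 starts without pheromone arrest. There TOS2 passed the midpoint at 64.9 min, TOS7 at 65.2 min, TOS4 at 67.5 min, CSI2 at 69.3 min, PLM2 at 70.4 min, SVS1 at 71.1 min, TOS6 at 72.4 min and TOS3 at 75.8 min. TOS4, CSI2, SVS1 and TOS6 thus rose between 67.5 and 72.4 min here, against 10.6 to 13.1 min in cycle 1. Their order in cycle 2 was the same on the Cy3 arrays (68.3, 69.3, 71.2 and 73.0 min) and on the Cy5 arrays (66.8, 69.1, 71.0 and 71.9 min). The places of other genes were less firm. TOS2 passed at 62.5 min on the Cy3 arrays, but at 67.4 min on the Cy5 arrays, after TOS7 (63.9 min) and TOS4. PLM2 passed at 68.9 and 73.4 min on the Cy3 and Cy5 arrays, and TOS3 at 69.7 and 75.1 min. The interval from one rise to the next was 56.6 min for TOS4, 58.7 min for CSI2 and 60.6 min for TOS6, with SVS1 between them, and 48.3 min for TOS7. These are shorter than the period of 66 min used in the fit. That of TOS3 was 65.8 min on the pair means, but 52.7 min on the Cy3 arrays and 62.6 min on the Cy5 arrays. Fitted with a period of its own, each of the 7 genes with the larger amplitudes had its best value between 55 and 60 min, and TOS3 at 67 min. No error can be given for these times, which come from a single course.

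The levels were next compared between 4 windows of 3 time points, to give the size of the changes between the arrest, G1/S and mitosis. Genes and windows were both chosen with earlier results of these data known, so a rise to G1/S was not an open question. The window of 0, 5 and 10 min is called the arrest here, although its samples at 5 and 10 min follow release. TOS4 already rose within it, from -2.07 at 5 min to -0.44 at 10 min. Between the arrest and G1/S of cycle 1 (20, 25 and 30 min), 8 of the 9 genes rose, against 10.1% of all genes called higher and 12.8% lower. For these 8 the 6 arrays of one window did not overlap with the 6 of the other (5 for TOS2 in the arrest), which held for 6.01% of all genes. The median difference of the 9 genes was 0.85, and over all genes it was -0.04.

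TOS6 rose from -2.60 ± 0.96 (SD, n = 3 time points) to 1.97 ± 0.16, a 23.7-fold change (limma adjusted p = 4.55e-04). SVS1 rose from -1.89 ± 0.37 to 1.78 ± 0.15, or 12.8-fold (limma adjusted p = 1.62e-04). TOS4 rose from -1.34 ± 0.83 to 1.37 ± 0.40, or 6.55-fold (limma adjusted p = 0.00149), and CSI2 from -1.35 ± 0.82 to 1.25 ± 0.23, or 6.04-fold (limma adjusted p = 0.00166). These 4 changes kept their calls whichever time point was left out. PLM2 rose by 0.70 ± 0.14 (SE; limma adjusted p = 0.00594) and kept its call too. TOS2 rose by 0.85 ± 0.25 (limma adjusted p = 0.0347), TOS7 by 0.63 ± 0.16 (0.0210) and TOS3 by 0.36 ± 0.11 (0.0338). The limma call of TOS2 was lost without 0 min (adjusted p = 0.0618), 5 min (0.103), 20 min (0.103), 25 min (0.0945) or 85 min (0.0518). That of TOS3 was lost without 0 min (0.0627), 5 min (0.0984), 20 min (0.0866), 25 min (0.108) or 85 min (0.0514). That of TOS7 was lost without 10 min (0.0528), 25 min (0.0645) or 30 min (0.0705). On the Cy3 arrays alone TOS2 and TOS7 did not pass (limma adjusted p = 0.205 and 0.161), nor did TOS3 on the Cy5 arrays alone (0.178). TOS7 and TOS3 also lost the call with scaled arrays (limma adjusted p = 0.0607 and 0.141) and with G1/S taken as 15 to 25 min (0.104 and 0.0657). TOS1 lay at -0.44 ± 0.12 in the arrest and at -0.51 ± 0.21 at G1/S (adjusted p = 0.683, limma).

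**Figure D3:**
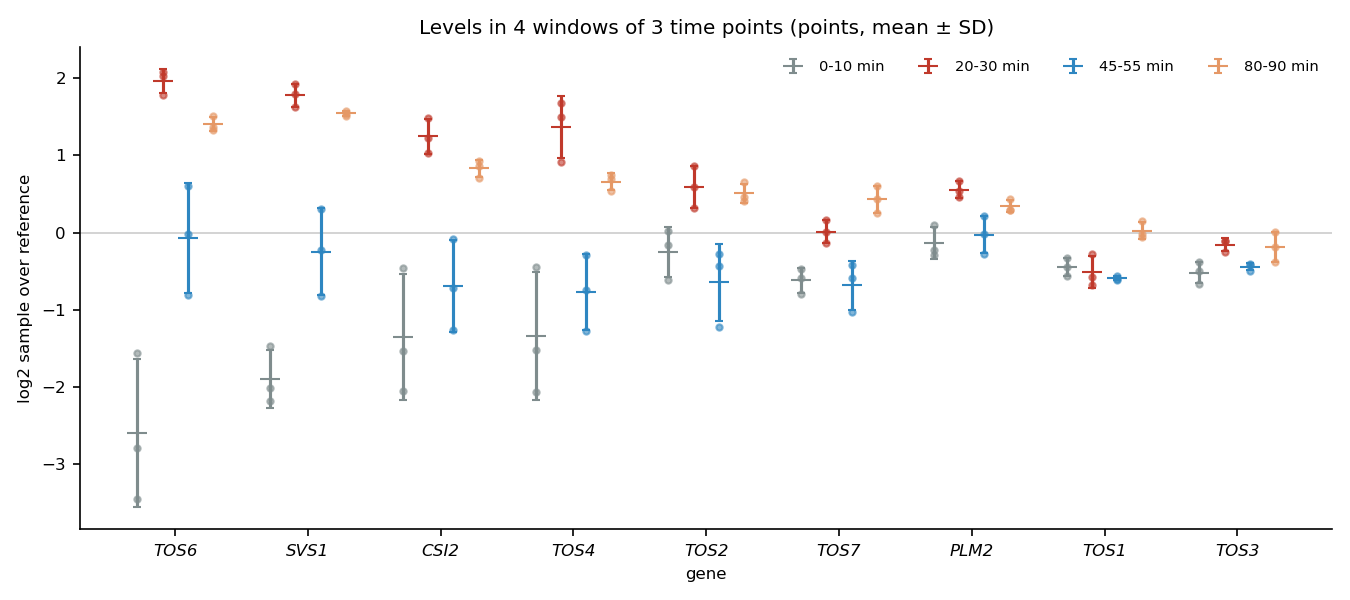
Log2 ratio of sample over reference (y axis) of each of the 9 genes (x axis) in the 4 windows (colours), with the 3 time points as points and their mean and SD as bars. TOS6, SVS1, TOS4 and CSI2 stand lowest in the arrest window and high in both G1/S windows, and TOS1 is highest in the G1/S window of cycle 2.

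Against the mitotic window (45, 50 and 55 min), G1/S of cycle 1 was higher for 7 of the 9 genes, where 7.72% of all genes were called higher and 6.13% lower. The differences were 2.14 ± 0.38 for TOS4, 2.04 ± 0.44 for TOS6, 2.03 ± 0.26 for SVS1, 1.94 ± 0.38 for CSI2, 1.24 ± 0.25 for TOS2, 0.69 ± 0.16 for TOS7 and 0.58 ± 0.14 for PLM2. TOS3 differed by 0.28 (limma adjusted p = 0.102) and TOS1 by 0.08 (0.642). Only TOS4, SVS1 and CSI2 kept the call whichever time point was left out. The limma call was lost for TOS6 without 20, 25, 50 or 55 min (adjusted p = 0.0593, 0.0620, 0.0501 and 0.0644), and for PLM2 without the same time points (0.0762, 0.0680, 0.0614 and 0.0760). It was lost for TOS7 without 25, 30, 50 or 55 min (0.0718, 0.0565, 0.0506 and 0.0658), and for TOS2 without 20 min (0.0516). On the Cy3 arrays alone TOS2 and TOS7 missed the threshold (limma adjusted p = 0.0520 and 0.0605), as did PLM2 on the Cy5 arrays alone (0.0573) and TOS7 with G1/S taken as 15 to 25 min (0.0614).

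For TOS6 and SVS1 the mitotic window was not as low as the arrest. In the mitotic window TOS6 stood at -0.07 ± 0.71, higher than in the arrest by 2.53 ± 0.44 (limma adjusted p = 0.00260), and SVS1 at -0.25 ± 0.57, higher by 1.65 ± 0.26 (0.00150). These were 2 of the 9 genes, where 11.5% of all genes were called higher and 14.7% lower. TOS4 and CSI2 differed by 0.57 and 0.66 (limma adjusted p = 0.299 and 0.233), and passed when the 10 min sample was left out (0.0399 and 0.0292). During that window levels were still falling: TOS6 went on to -1.48 at 60 min.

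G1/S of cycle 2 (80, 85 and 90 min) was higher than the mitotic window for 6 of the 9 genes, against 4.92% of all genes higher and 6.37% lower. SVS1 differed by 1.79 ± 0.26, CSI2 by 1.52 ± 0.38, TOS4 by 1.43 ± 0.38, TOS2 by 1.15 ± 0.25, TOS7 by 1.11 ± 0.16 and TOS1 by 0.62 ± 0.11. The limma adjusted p was 0.0577 for TOS6 (1.48), 0.107 for PLM2 (0.37) and 0.149 for TOS3 (0.25). SVS1, TOS7 and TOS1 kept their calls whichever time point was left out. TOS4 lost it without 20, 25, 50, 55, 80, 85 or 90 min (limma adjusted p = 0.0505, 0.0611, 0.102, 0.132, 0.114, 0.112 and 0.0817). CSI2 lost it without 25, 50, 55, 80, 85 or 90 min (0.0517, 0.0896, 0.107, 0.0953, 0.0802 and 0.0826), and TOS2 without 80 or 85 min (0.0698 and 0.0563). TOS6 passed when 5, 10 or 45 min was left out (0.0344, 0.0153 and 0.0399). TOS2 did not pass on the Cy3 arrays alone (limma adjusted p = 0.0627), nor TOS4 on the Cy5 arrays alone (0.0562).

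Between the G1/S windows themselves, 1 of the 9 genes differed. TOS1 was higher in cycle 2, at 0.03 ± 0.11 against -0.51 ± 0.21, a difference of 0.54 ± 0.11 (limma adjusted p = 0.0238), where 2.34% of all genes were called higher and 2.53% lower. The call was lost on the Cy3 arrays alone (adjusted p = 0.133) and without 20, 25, 80, 85 or 90 min (limma adjusted p = 0.0819, 0.0954, 0.0738, 0.0579 and 0.0858). TOS4 differed by -0.71 ± 0.38 (limma adjusted p = 0.338) and TOS7 differed by 0.42 ± 0.16 (0.172). Counted by arrays, the order was another one. The arrays of TOS1 overlapped, those of TOS7 were all higher in cycle 2 without overlap, as for 4.08% of all genes, and those of TOS6 and CSI2 all lower, as for 4.22%. With G1/S taken as 15 to 25 and 75 to 85 min, TOS7 passed (0.65; limma adjusted p = 0.0464). All comparisons of windows share the reference, and those that name the same window share its arrays.

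Whole cycles were compared with 12 time points each, 0 to 55 against 60 to 115 min. None of the 9 differed in mean level by limma, where 10.3% of all genes were called higher in cycle 2 and 10.5% lower. Without adjustment, 3 members would have passed that limma threshold: TOS1 and TOS7, higher in cycle 2, and PLM2, lower. The share of all genes passing without adjustment was not computed, so this count says nothing about the 9 genes as a set. TOS7, at 0.28 ± 0.11 (limma adjusted p = 0.0842), passed in 7 of 11 alternatives, with adjusted p-values from 0.0130 to 0.998 over all of them, and with title date as a term the difference was -0.03. The cosine itself differed for 5 of the 9 genes at a period of 66 min, against 23.4% of all genes. This test takes amplitude and peak time together, so the p-values below belong to both and not to the amplitude alone. Within the period of 66 min the fitted peak went from 31.3 to 24.1 min for TOS6 and from 30.3 to 21.3 min for SVS1. It went from 27.1 to 20.4 min for TOS4, from 28.0 to 20.5 min for CSI2 and from 29.0 to 17.4 min for TOS7. The amplitude went from 2.44 in cycle 1 to 1.34 in cycle 2 for TOS6 (limma adjusted p = 0.00819), from 1.95 to 1.40 for SVS1 (0.00268), from 1.60 to 0.90 for TOS4 (0.0112), from 1.58 to 1.19 for CSI2 (0.00979) and from 0.46 to 0.65 for TOS7 (5.44e-04). The fit set at 60 min called 1 of them and at 58 min none (TOS7 then had a limma adjusted p of 0.0682), while the differences in amplitude kept their sign. The arrays of replicate 1 carry one title date up to 55 min and another from 60 min on, so for the mean level cycle and title date cannot be told apart in that orientation. For the cosine, a limma fit of all arrays with title date as a term called the same 5 genes. Its amplitude differences were -1.17 for TOS6, -0.78 for TOS4, -0.62 for SVS1, -0.47 for CSI2 and 0.16 for TOS7.

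The 4 genes with the largest amplitudes were also the most alike. As a description, the course of one gene on the Cy3 arrays was correlated with that of the other on the Cy5 arrays and the reverse, over 25 time points, so that no array was shared, and both r were averaged. Among TOS6, SVS1, CSI2 and TOS4 this r lay between 0.90 and 0.95. TOS1 reached between 0.05 and 0.50 with the other members. The paralogs TOS4 and PLM2 had an r of 0.77.

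**Figure D4:**
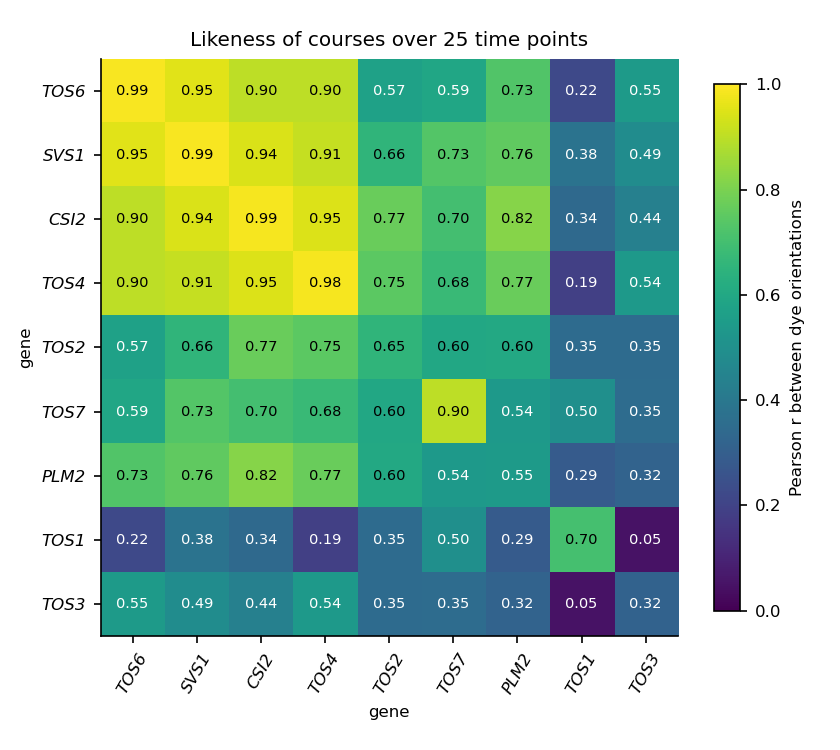
Pearson r over 25 time points between each pair of the 9 genes, taken across dye orientations, with the agreement of a gene's own arrays on the diagonal. The block of TOS6, SVS1, CSI2 and TOS4 holds values of 0.90 to 0.95, and the lowest value is 0.05 between TOS1 and TOS3.

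Among all 6204 genes, the course most like that of TOS4 was that of CDC21, the thymidylate synthase gene (r = 0.961), before the G1 cyclin gene CLN2 (0.949) and CSI2 (0.946). For CSI2 it was MNN1, a mannosyltransferase gene (0.954), then CLN2 (0.952) and TOS4. TOS6 was most like SWE1, the gene of the kinase that restrains mitosis (0.954), then SVS1 (0.953) and NUD1 of the spindle pole body (0.929). SVS1 was most like TOS6, then SWE1 (0.946) and CSI2 (0.944). The other members had looser matches: TOS2 with CRH1 of the cell wall and OGG1 of DNA repair (0.832 and 0.821), PLM2 with OGG1, TFC8 and DUO1 (0.863, 0.854 and 0.838), and TOS7 with the glucanase gene EXG1, CRH1 and SHO1 (0.798, 0.743 and 0.743). TOS3 reached 0.634 with YML102C-A, 0.599 with PAC11 and 0.596 with YDL009C. For comparison, the r between a gene's own arrays was 0.316 for TOS3, 0.546 for PLM2 and 0.654 for TOS2.

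Other genes of the pathway were taken from lists. By the limma F test 33.7% of all genes were periodic. All 21 further SBF targets were, with a median amplitude of 0.62, and so were 20 of 21 MBF targets, with a median of 0.83. For the 9 genes the median was 0.63. The exception among MBF targets was the B-type cyclin gene CLB5 (adjusted p = 0.205, limma). The mean peak was 24.4 min for the 9 genes (8 periodic), 24.9 min for the SBF list and 22.4 min for the MBF list. Between arrest and G1/S of cycle 1, 13 of 21 SBF targets and 17 of 21 MBF targets rose and none fell. Of all genes, 10.1% were called higher and 12.8% lower. The largest amplitudes in the SBF list were those of CLN2 (1.34), PCL1 (1.30), HO (1.29) and CRH1 (1.02), all under those of TOS6 and SVS1. In the MBF list RNR1 (1.63), MCD1 (1.42), CDC21 (1.13) and POL1 (1.09) led.

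Of 8 regulators, 7 were periodic, against 33.7% of all genes. The gene of the DNA-binding subunit, SWI4, peaked at 15.9 ± 1.96 min with an amplitude of 0.67, before each of the 9 genes in the fit. No interval was computed for this order. The gap to TOS2 (19.7 ± 1.58 min) is shorter than the sampling step of 5 min. SWI6 peaked at 29.2 min with an amplitude of 0.30, the repressor gene WHI5 at 27.9 min (0.90) and NRM1, the MBF corepressor gene, at 32.6 min (0.43). MSA1, an activator of G1 transcription, peaked at 5.0 min (0.79). MSA2 missed the threshold (limma adjusted p = 0.333), with a value at the -2 limit on its Cy3 array at 0 min. With values at the limit set to missing, all 8 regulators were periodic.

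**Figure D5:**
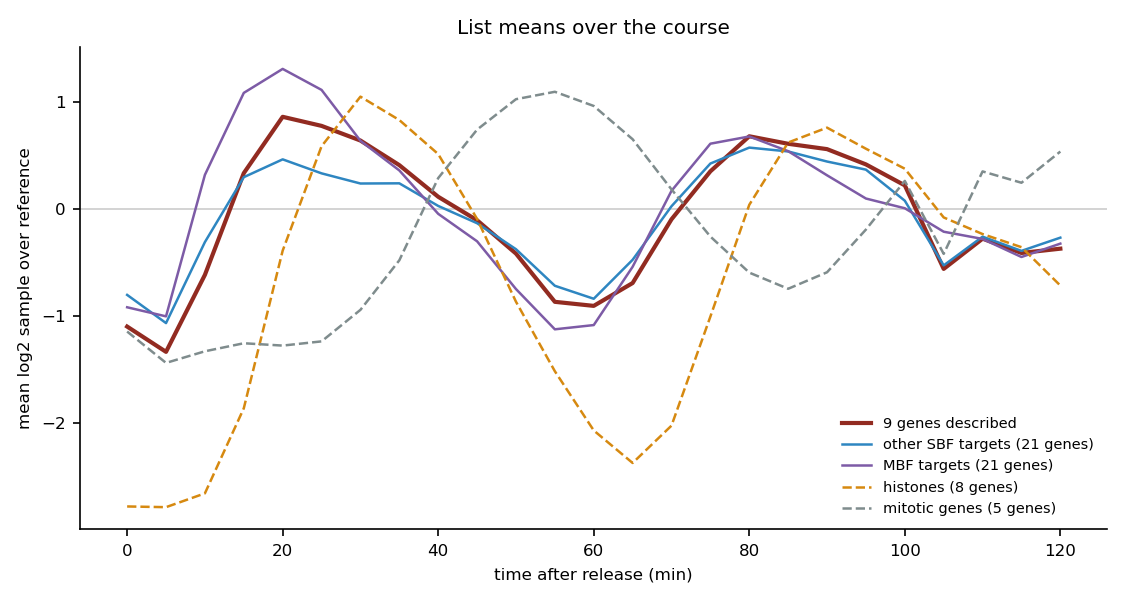
Mean log2 ratio (y axis) of the 9 genes, of 21 further SBF targets and of 21 MBF targets against minutes after release (x axis), with 8 histone genes and 5 mitotic genes as dashed lines. The mean of the 9 genes is highest at 20 min (0.86) and 80 min (0.68) and lowest at 5 min (-1.34) and 60 min (-0.91).

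The means over lists show the same 2 waves. The 9 genes went from -1.34 at 5 min to 0.86 at 20 min and from -0.91 at 60 min to 0.68 at 80 min. The MBF list went from -1.004 to 1.31 and from -1.09 to 0.68 at the same times, and the SBF list from -1.07 to 0.47 and from -0.84 to 0.58. The amplitude at 66 min was smaller in cycle 2 for 7 of the 9 genes, 14 of 21 SBF targets and 20 of 21 MBF targets, against 53.9% of all genes. As reference points, the mitotic genes of the list had a median of -1.20 at 0 min and the histone genes -2.96, and the 9 genes -0.59.

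A constant difference between the dyes, taken as the shift of each orientation from the pair's mean (Cy5 orientation positive, 25 pairs), passed the limma test for 5 of the 9 genes, against 46.6% of all genes. It was 0.14 for TOS1, 0.14 for TOS3, -0.11 for TOS7, -0.09 for SVS1 and 0.07 for CSI2. Averaging the pair removes it. For TOS1 and TOS3 it is close to their amplitudes of 0.19 and 0.15, whereas for SVS1 and CSI2 it is small beside 1.42 and 1.22.

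The 105 min sample broke the smooth decline of cycle 2 for several of the genes. There 8 of the 9 genes lay below the mean of their neighbours at 100 and 110 min, as did 53.1% of all genes. Of these 8, TOS4 (-0.30) and TOS7 (-0.50) still lay between their neighbours (0.24 and -0.38, -0.05 and -0.52), so their decline went on. SVS1 was at -0.76 against 0.87 and -0.15 beside it, and CSI2 at -1.17 against 0.34 and -0.80. TOS1 was at -0.98 against 0.00 and -0.28, on both arrays (-1.11 and -0.85), which is its lowest value of the course. TOS2 was at -1.77 on the Cy5 array and at -0.29 on the Cy3 array, below both neighbours on each (0.11 and -0.25, 0.05 and -0.19). PLM2 was at -0.78 on the Cy5 array and at 0.12 on the Cy3 array, where the neighbours were 0.27 and -0.24. The Cy5 array of 105 min is the only array with its title date. No window holds this time point.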

How the data were processed

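The authors deposited 1 log ratio per gene and array in a value table. The deposited values were read as log10 (ends at -2 and 2). Their base, direction, normalization and centring are not given in the sources used here. Of 6217 lines, 13 held controls or truncated names and were not used, 5704 of 6204 names matched the R64 gene table, which was used for symbols only, and 438 values were missing (1 of the 9 genes') and 709 at the limit (none of theirs). Replicate 1 was turned, values were converted to log2 and each dye-swap pair was averaged. Time points were the groups, as labelled.

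Tests used R 4.3.3 and limma 3.58.1 on all genes, with Benjamini-Hochberg adjusted p-values called under 0.05: an F test on sine and cosine at 66 min with a linear time term, its interaction with cycle, contrasts between windows (12 time points in one fit) and dye bias. A gene needed 20 of 25 time points, which removed none. The computations were tested on simulated data. Midpoint times and correlations are descriptions without a test.

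The 9 genes, the lists, the period and the windows were chosen with earlier results of these data known. Named are all 9 genes, for each list up to 4 with the largest amplitude and those that failed where 5 or fewer did, and for each periodic member the 3 most alike genes, of which 1 is not reported here. SWI6 and NRM1 were named for their roles. Sequences are not shown, since none were used here. The alternatives included each dye orientation alone, scaling, other periods, windows and cycles, a replicate block, title dates and leaving out time points.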

Additional observations from a re-analysis of the deposited data

Results flagged for a closer look

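At a period of 66 min, 5 genes passed the interaction test of limma. It takes amplitude and peak time jointly, and amplitude alone was not tested. From cycle 1 to cycle 2 the amplitude changed by -1.10 log2 units for TOS6, -0.70 for TOS4 and -0.56 for SVS1. For CSI2 it changed by -0.39 and for TOS7 by 0.20. The fitted peaks of these 5 genes also came earlier in cycle 2. At a period of 60 min the limma adjusted p was 0.151 for TOS6, 0.113 for TOS4, 0.191 for SVS1 and 0.404 for CSI2, and at 58 min it was 0.184, 0.115, 0.374 and 0.487, with 0.0682 for TOS7. The amplitude differences at 60 min were -1.03 for TOS6, -0.67 for TOS4, -0.51 for SVS1, -0.35 for CSI2 and 0.19 for TOS7. TOS7 kept its call for the cosine there (limma adjusted p = 0.0247). The best single periods of these genes lay between 55 and 58 min. The title date of replicate 1 changes between the cycles. With title date as a term in a limma fit of all arrays at 66 min, the differences were -1.17 for TOS6, -0.78 for TOS4, -0.62 for SVS1, -0.47 for CSI2 and 0.16 for TOS7, and the 5 calls held.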

How the results depend on the processing

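Of 1242 values of single genes recomputed under the alternatives, 1138 kept their side of the threshold, 72 lost the call, 32 gained it and no called value changed sign (22 uncalled ones did). The count of periodic members, 8, stayed between 7 and 9. The count of members differing in cosine between cycles, 5, fell to 1 at 60 min and 0 at 58 min (chosen after seeing the data), and was 6 with median-centred arrays, with scaled arrays, without 105, 110 and 115 min and with the replicate block. The count differing in level, 0, became 2 with scaled arrays, 1 with the replicate block (all arrays, dye orientation as a term and time point as a random block), 1 at 60 min, 1 at 58 min, 2 without 105, 110 and 115 min (chosen after seeing the data), 1 with cycles of 5 to 60 and 65 to 120 min, and 1 or 2 on a single orientation. The cause was not tested. TOS7 gained the call in 7 of 11 alternatives, TOS1 in 2 and TOS3 and PLM2 in 1 each. The blocked fit, which enters both arrays of a pair with 1 correlation for all genes and left the estimates named here unchanged, so that only their errors differ, called TOS1 periodic (limma adjusted p = 0.0350), and TOS6 and PLM2 between the mitotic window and G1/S of cycle 2 (0.00224 and 0.0376).

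For the window counts, leaving out a replicate or time point gave 5 to 8 (G1/S of cycle 1 against arrest, 8), 4 to 7 (against mitotic, 7), 3 to 7 (cycle 2 against mitotic, 6), 0 to 1 (between G1/S windows, 1) and 2 to 4 (mitotic against arrest, 2), with fewer samples in each fit. With G1/S windows of 15 to 25 and 75 to 85 min, 2 members differed between the G1/S windows. A date term was not run for G1/S of cycle 2, which shares no title date with the other windows, and in the level comparison it rests on a single array at 60 min. The filter removed no gene, so it says nothing about stability.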

Other observations

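Within the list of SBF targets, several genes did not follow the course of the 9 genes. HO, the mating-type switching endonuclease gene, differed by 3.15 log2 units between the G1/S windows, higher in cycle 2 (limma adjusted p = 0.00122), while the difference between arrest and G1/S of cycle 1 was -0.27 (0.603). It peaked at 12.8 min in the fit. PCL2, a Pho85 cyclin gene, stood at 2.77 and 2.19 at 0 min, the highest of the list, and peaked at 11.1 min. TOS8, a homeobox gene that also carries the TOS name, had an amplitude of 0.16 and a peak at 36.4 min, and the repressor gene YHP1 peaked at 42.8 min (0.21). These genes were chosen after their values were seen.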
